A study of Mus musculus with 11 samples.

Results

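The basement membrane genes studied here are 32 genes named by symbol, and all 32 have a row among the 46983 genes of the deposited count table. They encode 6 collagen IV chains, 10 laminin chains, 2 nidogens, 2 heparan sulfate proteoglycans, 2 multiplexins, 1 crosslinking enzyme, 3 proteins of the SPARC family, 3 proteins of the Fraser complex and 3 further basement membrane proteins. They were read by RNA sequencing in whole aortic valves of wild type mice, 48 hours after surgery, with 1 mouse in each of 11 libraries. The groups were young injured (3 mice), young sham (3 mice), aging injured (2 mice) and aging sham (3 mice), where young means 3 to 4 months and aging 16 to 18 months of age. Injury was made surgically with a wire in the living animal, with the aim of damaging the endothelium of the valve, and sham surgery was its control. Every group, sham included, had surgery and no unoperated valve was analysed here. A library mixes all the cells of 1 valve.

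A basement membrane is a thin sheet of matrix on which endothelial cells sit and which also wraps muscle, fat and Schwann cells. Laminins, each built of an alpha, a beta and a gamma chain, assemble at the cell surface, and a collagen IV network forms beside them. Nidogens and perlecan join both networks, and peroxidasin crosslinks the collagen IV. In an aortic valve the sheet lies between the endothelium and the matrix-rich core of interstitial cells.

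Total counts per library ran between 27124000 and 36353474. Fewer genes had a count in aging injured 1, aging injured 2 and young sham 1 (18642, 19015 and 18641) than in the other libraries (20411 to 22533). Markers of valve interstitial cells summed to 15716 to 23436 normalised CPM and those of endothelium to 765 to 1824 CPM, and all 9 and all 15 were detected in every library. The endothelial sum was 765 to 1543 CPM in young injured valves against 1148 to 1686 CPM in young sham valves, and 1407 to 1523 CPM in aging injured valves against 1088 to 1824 CPM in aging sham valves, so the groups overlapped at both ages. Cardiomyocyte markers, all 14 detected throughout, summed to 7839 to 38512 CPM and smooth muscle markers to 6807 to 24947 CPM, so the libraries also held RNA of these cells. All CPM use library sizes rescaled by edgeR's TMM factors. Because the samples are bulk tissue, fewer cells of a type and less RNA per cell cannot be told apart.

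Levels can be compared between genes only per transcript length, and for that the deposited RPKM (reads per transcript length and library size) were used, which list 28 of the 32 genes. Sparc, a secreted collagen-binding glycoprotein, stood highest, at 798 to 979 RPKM in young injured valves, 453 to 569 RPKM in young sham valves, 564 to 699 RPKM in aging injured valves and 480 to 519 RPKM in aging sham valves. Lamb2 (154 to 250 RPKM over all 11 libraries), Col4a1 (106 to 170 RPKM) and Hspg2, the gene of perlecan (101 to 168 RPKM), came next together with Col18a1 (62.6 to 249 RPKM). At the foot of the order were Lamb3 (0.126 to 1.00 RPKM) and Lama3 (0.150 to 1.11 RPKM), chains of epithelial laminin. Lama1, an alpha chain of embryonic laminin, had 0 to 8 counts per library, and it was the 1 member that missed the filter on low counts, so 31 were tested.

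**Figure D1:**
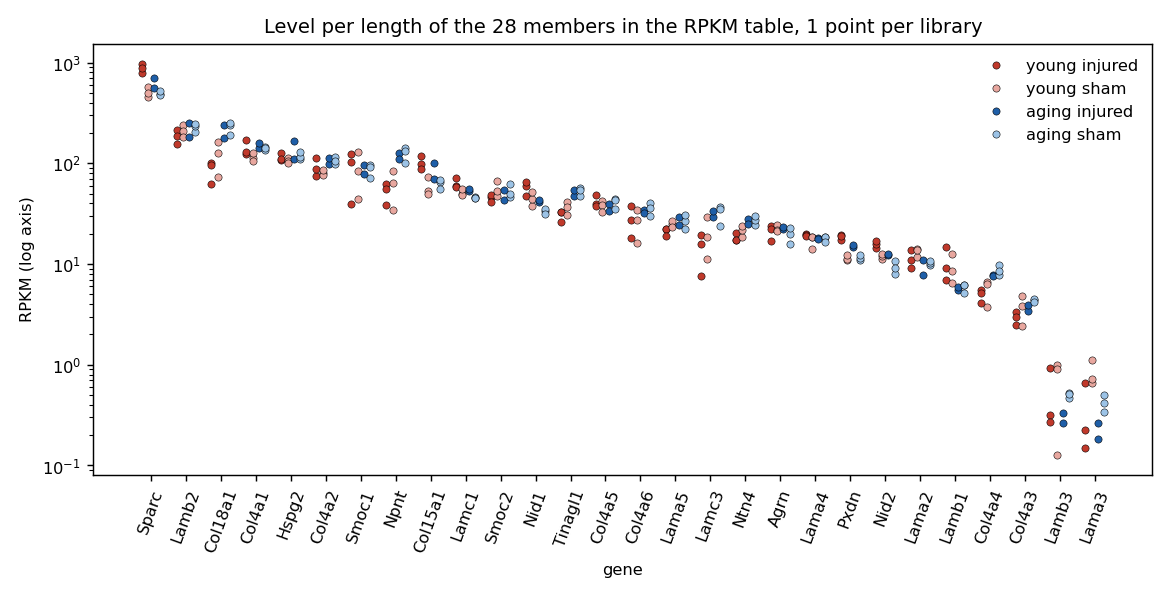
Deposited RPKM (log axis) of the 28 basement membrane genes in the RPKM table, 1 point per library and 1 colour per group, ordered by mean level. Levels span from Lama3 at 0.150 to 1.11 RPKM to Sparc at 453 to 979 RPKM, and the points of Sparc are higher in young injured than in young sham valves.

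Within the laminin families, the same RPKM give each chain's share of its family. Among alpha chains Lama5 held 36.2% to 43.8% in young injured valves, 41.3% to 48.5% in young sham valves, 45.2% to 53.4% in aging injured valves and 43.7% to 52.3% in aging sham valves. Lama4, a vascular alpha chain, held 35.9% to 37.9% in young injured valves against 27.5% to 32.4% in young sham valves, so that its share did not overlap between the young groups. In aging valves its share was 31.9% to 34.0% with injury and 28.2% to 36.4% with sham surgery, and these overlapped. Lamb2 made up 90.7% to 97.7% of beta chain RPKM in every library, and Lamb1 made up 2.08% to 8.71%. Lamc1, the gamma chain of most laminins, exceeded Lamc3 in each library, with a ratio of RPKM between 1.24 in aging sham 2 and 9.60 in young injured 3. These shares are descriptions of 11 libraries, and they do not count Lama1, which the RPKM table does not list.

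Among the collagen IV chains, Col4a1 held 40.4% to 49.4% and Col4a2 25.6% to 34.4% of the family's RPKM, and together they are the chains of the common collagen IV trimer. Col4a3, Col4a4 and Col4a5 build another trimer, and Col4a3 and Col4a4 each held under 3 percent of the family, with upper ends of 1.71% and 2.92%. The 6 genes lie in 3 head-to-head pairs (mm10). On chromosome 8 the annotated starts of Col4a1 and Col4a2 overlap. On chromosome 1 the starts of Col4a4 and Col4a3 are 71 bases apart, and on chromosome X those of Col4a6 and Col4a5 are 1308 bases apart. The ratio of RPKM within a pair was 1.25 to 1.64 for Col4a1 over Col4a2, 0.448 to 0.724 for Col4a3 over Col4a4 and 1.06 to 2.09 for Col4a5 over Col4a6. Reads over the shared start of Col4a1 and Col4a2 cannot be assigned with certainty, since the use of strand in counting is not given in the sources used here.

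In young valves no basement membrane gene passed the study's own rule after injury, which asks for more than a 2-fold difference together with an adjusted p under 0.1. The nearest were Pxdn, Sparc and Col15a1, each between 1.57-fold and 1.69-fold higher in injured than in sham valves. Nid1, Nid2 and Lamc1 were 1.19-fold to 1.28-fold higher, and Lama3 had 0.409 times its sham level. The other tested chains of collagen IV and laminin lay between -0.54 (Lamc3) and 0.23 (Col4a1) on the log2 scale.

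The counts for injury in young valves came from edgeR's quasi-likelihood test over 19366 genes with Benjamini-Hochberg adjustment. It called 0 of 31 members, beside 0.418 percent of all genes, and DESeq2 also called 0. At adjusted p alone edgeR passed 1 member, Pxdn, against 0.687 percent of all genes. DESeq2, which called 268 genes by the rule, passed Col15a1, Pxdn and Sparc at adjusted p alone. At an unadjusted p under 0.05 edgeR passed 5 members (16.1%) against 9.19 percent. Log2 fold changes were positive for 14 of 31 members, beside 51.5 percent of all genes, and their median was -0.15 beside 0.01. The libraries of young injured and young sham valves did not overlap for 6 members that were higher, Lama4, Lamc1, Nid2, Col15a1, Pxdn and Sparc, where 9.54 percent of all genes did so. They did not overlap for 3 members that were lower, Lama3, Lama5 and Smoc2, where 5.07 percent of all genes did so.

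In aging valves the same test called 0 members and 0 percent of all genes, and 2 members, Pxdn and Nid2, had an unadjusted p under 0.05, where 8.83 percent of all genes had one. DESeq2 called 0 members among 329 genes, and it passed Pxdn at adjusted p alone. The members' median log2 fold change was 0.01, beside -0.01 over all genes. Groups did not overlap for 6 members that were higher, Lamc1, Nid1, Nid2, Col15a1, Pxdn and Sparc (11.1 percent of all genes), and for 3 that were lower, Col4a3, Lama3 and Lamb3 (16.7 percent of all genes). Lamb3, with 1064 counts over all libraries, shares its locus with the opposite-strand genes G0s2 (9870 counts) and Hsd11b1 (6307 counts) and the same-strand Gm37691 (852 counts), so its values are uncertain. With 2 injured mice, this lack of overlap is easier to reach than in young valves. At both ages at once, 5 members were higher without overlap, Lamc1, Nid2, Col15a1, Pxdn and Sparc, which is 16.1% of the members beside 2.41 percent of all genes, and 1, Lama3, was lower, beside 0.966 percent.

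Averaged over both ages, again 0 members were called by edgeR and by DESeq2, beside 0.594 percent of all genes by edgeR. At adjusted p alone 2 passed in edgeR, Pxdn and Sparc, beside 1.04 percent of all genes, and 7 members had an unadjusted p under 0.05, beside 11.5 percent. DESeq2, which called 402 genes by the rule, passed Col15a1, Nid2, Pxdn and Sparc at adjusted p alone.

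**Figure D2:**
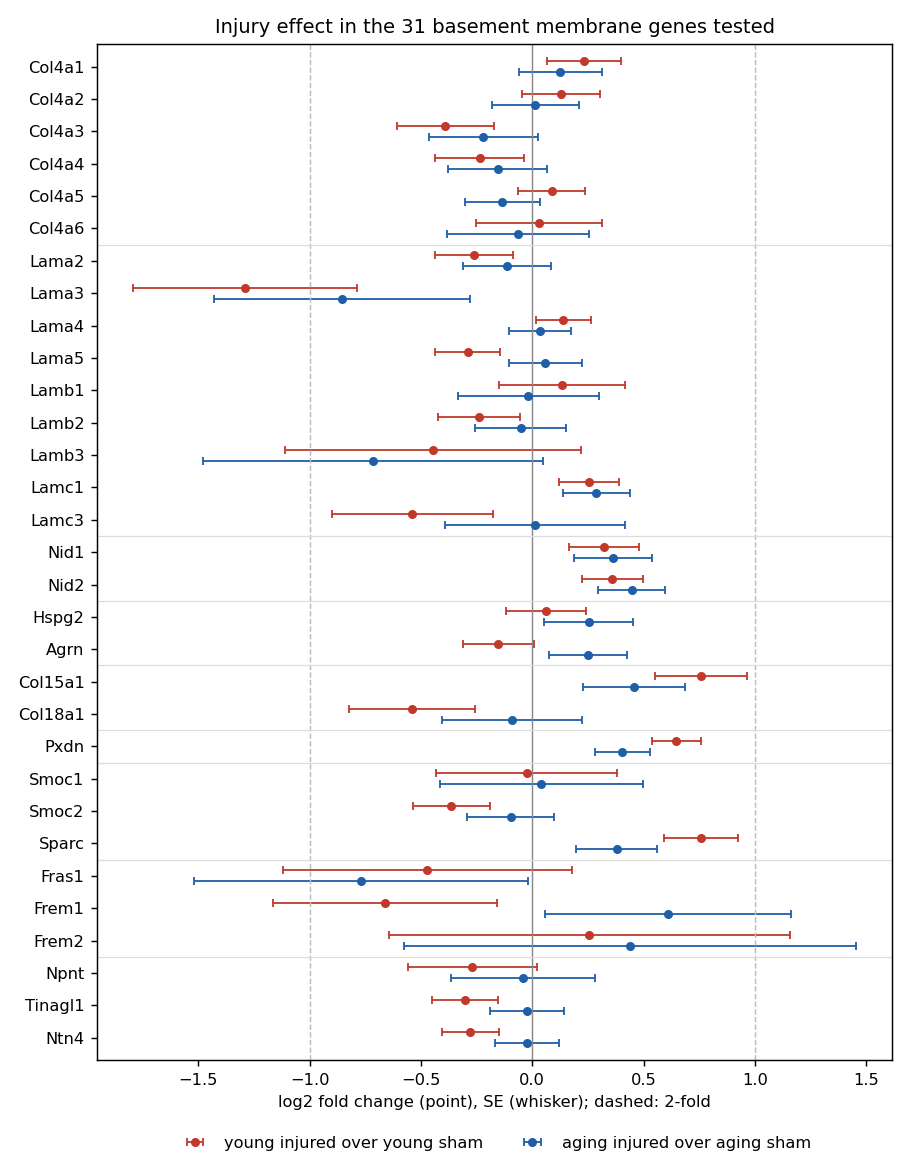
Log2 fold change (point) and its standard error (whisker) of injured over sham valves for the 31 genes tested, in young mice (upper point of each gene) and aging mice (lower point), with genes grouped by role and dashed lines at 2-fold. Pxdn at 0.65 and 0.40, Col15a1 at 0.76 and 0.46 and Sparc at 0.76 and 0.38 lie right of 0 at both ages, and Lama3 at -1.29 and -0.86 lies left of it.

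Pxdn encodes peroxidasin, the heme peroxidase that forms sulfilimine bonds between collagen IV molecules. It had 144, 164 and 164 CPM in young injured valves, against 98.3, 95.4 and 108 CPM in young sham valves. In aging valves it had 125 and 135 CPM after injury, against 93.8, 97.7 and 103 CPM after sham surgery. Every injured library was above every sham library, and the young injured libraries were also above the aging injured ones. On the log2 scale the difference was 0.65 ± 0.11 (SE, adjusted p = 0.0473) in young valves, 0.40 ± 0.12 (adjusted p = 0.399) in aging valves and 0.53 ± 0.08 (adjusted p = 0.0253) averaged over both ages. The size stayed below 2-fold in each. The averaged adjusted p was under 0.1 in all 19 alternative settings that could be fitted, with a highest value of 0.0982. In young valves it was under 0.1 in 13 of 20 settings, and it ranged up to 0.224 when only the young libraries were fitted.

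Sparc encodes osteonectin, which binds collagen in the endoplasmic reticulum and outside the cell. Its levels were 2331, 2904 and 2724 CPM in young injured valves, against 1796, 1377 and 1533 CPM in young sham valves. Aging injured valves had 1696 and 2176 CPM and aging sham valves 1473, 1435 and 1557 CPM. Both injured groups lay above their sham groups with no overlap, and aging injured 1 was the closest to sham. The log2 fold change was 0.76 ± 0.17 (adjusted p = 0.103) in young valves, 0.38 ± 0.18 (adjusted p = 0.597) in aging valves and 0.57 ± 0.12 (adjusted p = 0.0880) averaged. The averaged adjusted p was under 0.1 in 8 of 19 alternative settings and reached 0.232 without aging sham 2. With a term for the 3 libraries with few detected genes, the aging value of Sparc was 0.08 ± 0.30 (adjusted p = 0.961). That term covers both aging injured libraries, so its size came only from young sham 1 against the other young sham libraries. It cannot separate few detected genes from injury in aging valves.

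Col15a1 encodes collagen XV, a multiplexin that anchors the outer face of basement membranes to fibrillar matrix. It had 548, 493 and 685 CPM in young injured valves, against 315, 282 and 424 CPM in young sham valves. In aging injured valves it had 399 and 587 CPM, against 376, 313 and 389.8 CPM in aging sham valves. The groups were apart at both ages, but aging injured 1 exceeded the highest aging sham library by little. Injured over sham, this gave a log2 fold change of 0.76 ± 0.21 (adjusted p = 0.207) in young and 0.46 ± 0.23 (adjusted p = 0.612) in aging valves. The other multiplexin, Col18a1, had values of the opposite sign, -0.54 ± 0.28 and -0.09 ± 0.32, and its groups overlapped at both ages.

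The nidogens bridge laminin and collagen IV, and both gave positive values at both ages. Nid1 had 250.2, 317 and 363 CPM in young injured valves, against 215, 243 and 284 CPM in young sham valves. In aging valves Nid1 had 224 and 239 CPM after injury, against 184, 187 and 170.2 CPM after sham surgery. Young groups overlapped through young injured 1, which lay below young sham 3, and aging groups did not. Nid2 had 61.3, 68.7 and 75.1 CPM in young injured valves, against 51.5, 52.7 and 55.5 CPM in young sham valves. In aging valves Nid2 had 53.8 and 56.9 CPM after injury, against 47.5, 34.5 and 39.6 CPM after sham surgery. The groups of Nid2 did not overlap at either age, and young injured 3 was the highest library. Averaged over both ages, the log2 fold change was 0.34 ± 0.12 (adjusted p = 0.289) for Nid1 and 0.40 ± 0.10 (adjusted p = 0.133) for Nid2. Nid2 shares part of its locus with an opposite-strand gene, 2700060E02Rik, that held 22134 counts beside 19398 for Nid2 over all libraries, so some Nid2 reads may belong to that gene.

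The stretch before the start of transcription is shown for the 4 members among those just described that have an entry in the RefSeq promoter table (GRCm38.p6), so that their base composition and simple motifs can be compared. Each line gives the 250 bases before the start, 5′ to 3′, on the gene's own strand. They are chr12:29937786-29938035 (plus strand) for Pxdn, chr11:55420081-55420330 (minus strand) for Sparc, chr4:47207762-47208011 (plus strand) for Col15a1 and chr13:13437352-13437601 (plus strand) for Nid1. Capitals mark the GC box (GGGCGG), the box named CCAAT and the TATA box (TATAAA), each on either strand. No marked motif overlaps another in these windows.
Pxdn: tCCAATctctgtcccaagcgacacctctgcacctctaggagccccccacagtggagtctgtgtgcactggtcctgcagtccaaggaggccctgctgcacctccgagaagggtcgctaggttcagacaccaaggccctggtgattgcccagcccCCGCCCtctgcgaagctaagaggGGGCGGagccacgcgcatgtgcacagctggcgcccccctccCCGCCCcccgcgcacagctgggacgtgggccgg
Sparc: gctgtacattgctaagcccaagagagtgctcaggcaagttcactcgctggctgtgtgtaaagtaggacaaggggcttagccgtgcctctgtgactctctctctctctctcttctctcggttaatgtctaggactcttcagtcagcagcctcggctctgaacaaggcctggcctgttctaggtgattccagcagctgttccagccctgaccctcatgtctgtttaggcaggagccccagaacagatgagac
Col15a1: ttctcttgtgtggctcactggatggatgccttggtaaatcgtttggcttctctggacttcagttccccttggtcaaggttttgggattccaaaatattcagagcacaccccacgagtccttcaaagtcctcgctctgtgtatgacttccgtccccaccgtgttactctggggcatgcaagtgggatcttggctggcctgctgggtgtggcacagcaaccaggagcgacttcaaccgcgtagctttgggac
Nid1: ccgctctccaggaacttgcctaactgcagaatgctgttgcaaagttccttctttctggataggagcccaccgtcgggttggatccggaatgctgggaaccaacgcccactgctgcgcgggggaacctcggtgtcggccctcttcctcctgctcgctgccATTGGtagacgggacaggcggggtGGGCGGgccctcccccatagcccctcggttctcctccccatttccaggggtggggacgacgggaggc
Pxdn held 3 GC boxes and 1 CCAAT box, Nid1 held 1 of each, and none of these letters was in the windows of Sparc and Col15a1. Over all 32851 promoters of the table, 32.7% held the GC box, 33.8% the CCAAT box and 12.4% the TATA box in the same 250 bases. The RefSeq start of Col15a1 lies 149 bases from the start in the deposited table, and those of the other genes shown are the same.

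**Figure D3:**
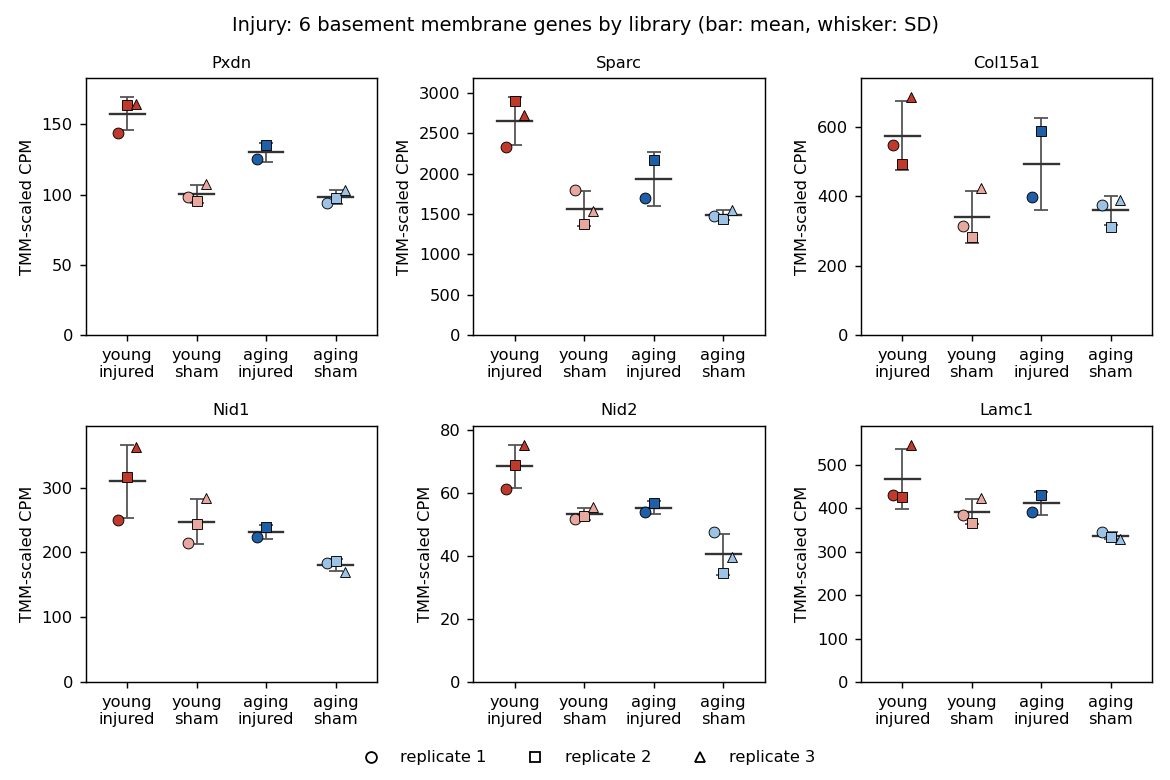
TMM-scaled CPM of Pxdn, Sparc, Col15a1, Nid1, Nid2 and Lamc1 in each library, with the group mean (bar) and SD (whisker), axes from 0. The injured libraries lie above the sham libraries of the same age for all but Nid1 in young valves, where young injured 1 at 250.2 CPM lies below young sham 3 at 284 CPM.

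Among laminins, Lamc1 had 429, 426 and 546 CPM in young injured valves, against 385, 366 and 423 CPM in young sham valves. In aging valves it had 392.2 and 430.3 CPM after injury, against 346, 334 and 330.1 CPM after sham surgery. All injured libraries exceeded the sham libraries of their age, by 0.26 ± 0.14 (adjusted p = 0.622) in young and 0.29 ± 0.15 (adjusted p = 0.624) in aging valves on the log2 scale. Lama4 had 204 to 210.5 CPM in young injured valves against 161 to 203 CPM in young sham valves, which did not overlap but lay close. Its log2 fold change there was 0.14 ± 0.12 (adjusted p = 0.807), and its aging groups overlapped. Lamb2, the most abundant laminin chain per length, had 1128, 998 and 855 CPM in young injured valves against 1358, 1146 and 1015 CPM in young sham valves. It had 984 and 1404 CPM in aging injured valves against 1135, 1262 and 1316 CPM in aging sham valves. Its groups overlapped at both ages.

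Lama3, an alpha chain of epithelial laminin, was a low gene with the largest log2 fold change of the 31 tested members in young valves. It had 2.11, 1.42 and 6.51 CPM in young injured valves, against 6.58, 7.03 and 10.9 CPM in young sham valves. In aging valves it had 1.78 and 2.63 CPM after injury, against 3.31, 3.95 and 4.74 CPM after sham surgery. Every injured library was below the sham libraries of its age, although young injured 3 came close to sham. The log2 fold change was -1.29 ± 0.50 (adjusted p = 0.443) in young and -0.86 ± 0.57 (adjusted p = 0.730) in aging valves. Without young injured 3 the young value was -2.21 (adjusted p = 0.0412), which passes the study's rule, and over the 20 alternative settings the adjusted p ranged between 0.0412 and 0.954. Young injured 3 and young sham 3, each the highest for Lama3 in its group, were also the highest of their groups in cardiomyocyte markers (38512 and 37286 CPM) and in summed adipocyte markers (2177 and 2134 CPM). They were the lowest in smooth muscle markers (6807 and 8361 CPM). Lpl alone gave 1877 and 1847 CPM of these adipocyte sums, so the sums say little about the other markers of that list. With a cardiomyocyte score as a covariate the young value of Lama3 was -0.96 ± 0.44 (adjusted p = 0.543), which does not pass the rule, and with a smooth muscle score it was -1.74 ± 0.43 (adjusted p = 0.0825), which does. The part of adipocytes was not tested.

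For collagen IV itself, Col4a1 had 728, 770.3 and 1058 CPM in young injured valves, against 729.6, 652 and 792 CPM in young sham valves. In aging valves it had 861 and 1008 CPM after injury, against 892, 822 and 857 CPM after sham surgery. The groups overlapped at both ages, and only young injured 3 and aging injured 2 were above the range of their sham groups. This amounted to 0.23 ± 0.17 on the log2 scale (adjusted p = 0.740) in young and 0.13 ± 0.19 (adjusted p = 0.924) in aging valves. The other 5 chains ran between -0.39 and 0.13 in young valves and between -0.22 and 0.01 in aging valves.

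Hspg2, the gene of perlecan, had 1351, 1597 and 1440.1 CPM in young injured valves, against 1534, 1357 and 1316 CPM in young sham valves. It had 1411 and 2225 CPM in aging injured valves, against 1432, 1479 and 1665 CPM in aging sham valves. Aging injured 2 stood above all other libraries, and aging injured 1 below all 3 aging sham libraries, so the groups overlapped. Agrn, the gene of agrin, which clusters receptors at synapses and binds laminin, had 191, 180.3 and 144 CPM in young injured valves, against 210.4, 181 and 180.3 CPM in young sham valves. In aging valves Agrn had 185 and 201 CPM after injury, against 133, 164 and 189 CPM after sham surgery. These groups overlapped as well.

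Of the remaining genes, Lama2, the laminin alpha chain of muscle, had 131 to 208 CPM in young injured valves against 179 to 207 CPM in young sham valves, and 118 to 160 CPM in aging injured valves against 145 to 157 CPM in aging sham valves, overlapping at both ages. Smoc2, a SPARC relative that binds calcium, had 114, 120.3 and 107 CPM in young injured valves against 179, 121 and 139 CPM in young sham valves, with no overlap and a log2 fold change of -0.36 ± 0.17 (adjusted p = 0.570). Fras1, which with Frem1 and Frem2 anchors embryonic epithelium to the dermis, had 6.83, 3.72 and 4.75 CPM in young injured valves against 2.41, 10.4 and 8.48 CPM in young sham valves. Fras1 had 0.639 and 4.50 CPM in aging injured valves against 5.80, 4.72 and 2.69 CPM in aging sham valves. The Fraser genes were low and uneven: Frem2 was at 7.53 CPM in aging injured 1 and at 0.117 CPM in aging injured 2. Without aging injured 1, Frem2 passed the rule for injury in aging valves at -4.55 (adjusted p = 0.0978), with the lone library that remained assumed to vary like the other groups. Over 20 alternative settings its adjusted p there ranged between 0.0978 and 1.00.

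Other markers moved with injury beside these genes. Cell cycle markers, all 10 detected in every library, summed to 125 to 244 CPM in young injured valves against 15.2 to 33.1 CPM in young sham valves, and to 87.3 to 91.3 CPM in aging injured valves against 14.4 to 31.1 CPM in aging sham valves. Macrophage markers, all 10 detected, summed to 765 to 1283 CPM in young injured valves against 699.8 to 939 CPM in young sham valves, and to 1223 to 1246 CPM in aging injured valves against 783 to 1107 CPM in aging sham valves. Schwann cell markers summed to 61.1 to 64.9 CPM in young injured valves against 72.2 to 124 CPM in young sham valves. Their sum was 69.7 to 78.0 CPM in aging injured valves against 86.1 to 101 CPM in aging sham valves. Of these 8 markers, Pmp2 alone was at 0 in some library. Log2 fold changes were positive for 0 of the 7 tested in young valves (median -0.78). In aging valves 3 of the 7 were positive (median -0.29), so that list was split. The cell cycle sums were higher and the Schwann cell sums lower in injured valves without overlap at both ages. The macrophage sums overlapped in young valves. In aging valves, smooth muscle and pericyte markers summed to 18634 to 20480 CPM after injury against 21062 to 24947 CPM after sham surgery. Mesothelial and epicardial markers summed to 81.3 to 90.8 CPM against 134 to 245 CPM. Both sums were lower after injury without overlap in aging valves, and overlapped in young valves. In aging valves 5 of the 11 smooth muscle and pericyte markers had positive values (median -0.16), so that list was split. Of the 8 mesothelial and epicardial markers, 0 were positive there (median -1.035). Cardiomyocyte sums overlapped at both ages, with 1 of 14 markers positive in young valves (median -0.77) and 9 of 14 in aging valves (median 0.04). Adipocyte sums also overlapped, with 6 of 9 markers positive in young valves (median 0.68) and 9 of 9 in aging valves (median 1.63). With a cardiomyocyte score as a covariate, edgeR passed Col15a1, Lamc3 and Pxdn at adjusted p alone in young valves. The part of cell cycle, macrophage, adipocyte, Schwann cell and mesothelial lists in Pxdn, Sparc, Col15a1, Nid1, Nid2 and Lamc1 was not tested.

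Whether injury acted differently on these genes with age was tested as the interaction, the log2 fold change in aging valves minus that in young valves. It called 0 of 31 members and 0 percent of all genes by edgeR, 0 members had an unadjusted p under 0.05 (7.86 percent of all genes did), and DESeq2 called 0 members among 174 genes. The 3 smallest p values belonged to Agrn at 0.40 ± 0.24 (adjusted p = 0.731), Frem1 at 1.27 ± 0.75 (adjusted p = 0.731) and Lama5 at 0.35 ± 0.22 (adjusted p = 0.750). Frem1, which encodes a partner of Fras1, had 2.24, 2.39 and 2.01 CPM in young injured valves against 4.47, 1.90 and 4.14 CPM in young sham valves. It had 1.53 and 5.93 CPM in aging injured valves against 1.80, 2.59 and 2.97 CPM in aging sham valves. The aging value of Frem1 rested on aging injured 2, and without it the interaction was -0.03. Lama5 had 222, 223 and 197 CPM in young injured valves against 267, 274 and 244 CPM in young sham valves, and 247 and 312 CPM in aging injured valves against 229, 268 and 308 CPM in aging sham valves. Young groups of Lama5 did not overlap and aging groups did. For Pxdn and Sparc the interaction was -0.24 ± 0.17 (adjusted p = 0.773) and -0.38 ± 0.25 (adjusted p = 0.760), so the lower values after injury in aging valves were not shown to differ from those in young valves.

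The comparison of aging with young valves, made within each surgery, asked how these genes differ with age. No member passed the rule in edgeR. Col18a1, Npnt, Tinagl1, Ntn4 and Col4a4 were higher in aging than in young valves within each surgery, with no overlap. Nid1, Nid2 and Lamb1 were lower in aging than in young valves within each surgery, with no overlap. These 5 and 3 members are 16.1% and 9.68% of the 31, beside 2.44 and 1.53 percent of all genes. Each age comparison shares libraries with both injury comparisons, and all of them came from the same fit. They are therefore given side by side and not as support for one another.

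In sham valves edgeR called 0 members for age, beside 0.0258 percent of all genes, and DESeq2 called 0. An unadjusted p under 0.05 was found for 9 members (29.0%), beside 9.19 percent of all genes. In injured valves edgeR called 0 members, beside 0.062 percent of all genes (0.0671 percent at adjusted p alone), and 11 members (35.5%) had an unadjusted p under 0.05, beside 12.5 percent. DESeq2 called 3 members in injured valves, Col18a1, Lamc3 and Npnt, among 599 genes. Without overlap, 7 members were higher and 6 lower in aging sham than in young sham valves (11.8 and 9.08 percent of all genes), and 8 were higher and 6 lower in aging injured than in young injured valves (9.89 and 14.5 percent of all genes).

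Npnt encodes nephronectin, an integrin ligand of basement membranes. It had 566 and 519 CPM in aging injured valves, against 274, 246 and 176 CPM in young injured valves. In sham valves it had 452, 629 and 594 CPM in aging mice, against 391.7, 291 and 156 CPM in young mice. Aging libraries were all above young ones, and young sham 3 and young injured 3 were the lowest. The log2 fold change was 1.22 ± 0.32 (adjusted p = 0.180) in injured and 1.00 ± 0.29 (adjusted p = 0.381) in sham valves.

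Col18a1 encodes collagen XVIII, a heparan sulfate collagen whose end fragment is endostatin. It had 1131 and 1554 CPM in aging injured valves, against 621, 602 and 401 CPM in young injured valves. In sham valves it had 1215, 1516 and 1558 CPM in aging mice, against 1081, 811 and 473 CPM in young mice. The groups did not overlap within either surgery, and young injured 3 and young sham 3 were again lowest. The log2 fold change was 1.31 ± 0.31 (adjusted p = 0.158) in injured and 0.86 ± 0.28 (adjusted p = 0.440) in sham valves. In injured valves the log2 fold change of Col18a1 ranged between 0.56 and 1.52 and its adjusted p between 0.00452 and 0.672 over 20 alternative settings. Slc19a1 overlaps Col18a1 on the other strand, with 2794 counts beside 354807.

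Tinagl1 encodes a matricellular protein related to tubulointerstitial nephritis antigen. It had 186 and 219.9 CPM in aging injured valves, against 123, 125 and 105 CPM in young injured valves. In sham valves it had 185, 222 and 212 CPM in aging mice, against 168, 145 and 122 CPM in young mice. Aging libraries lay above the young ones with no overlap, by 0.79 ± 0.16 (adjusted p = 0.141) in injured and 0.51 ± 0.15 (adjusted p = 0.384) in sham valves on the log2 scale.

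Ntn4 encodes netrin-4, which binds laminin gamma chains. It had 92.9 and 86.3 CPM in aging injured valves, against 56.1, 66.8 and 58.6 CPM in young injured valves. In sham valves it had 81.7, 91.2 and 100.5 CPM in aging mice, against 64.7, 73.8 and 81.5 CPM in young mice. The injured groups were well apart, and the sham groups were apart by little, with aging sham 1 just above young sham 3. Aging over young, Ntn4 had a log2 fold change of 0.57 ± 0.14 (adjusted p = 0.175) in injured and 0.31 ± 0.13 (adjusted p = 0.517) in sham valves.

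Col4a4 had 72.9 and 75.4 CPM in aging injured valves against 50.9, 47.7 and 40.0 CPM in young injured valves, and 75.0, 91.4 and 81.2 CPM in aging sham valves against 66.2, 60.9 and 36.2 CPM in young sham valves. Its partner Col4a3 overlapped in sham valves. All 6 collagen IV chains had positive values for age in sham valves (0.07 to 0.60) and 5 of 6 did in injured valves (-0.15 to 0.68), and none passed the rule. Lamc3, the other gamma chain of the set, had 160.2 and 191 CPM in aging injured valves against 103, 84.0 and 41.9 CPM in young injured valves. In sham valves its groups overlapped.

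In the other direction, Nid1 had lower levels in aging than in young valves, with log2 fold changes of -0.42 ± 0.18 (adjusted p = 0.375) in injured and -0.46 ± 0.16 (adjusted p = 0.449) in sham valves. Nid2 had -0.31 ± 0.15 (adjusted p = 0.443) and -0.39 ± 0.14 (adjusted p = 0.449). Lamb1, a widely expressed beta chain, had 48.7 and 53.8 CPM in aging injured valves against 59.7, 80.7 and 134 CPM in young injured valves. Lamb1 had 55.3, 54.5 and 45.8 CPM in aging sham valves against 59.8, 76.5 and 114 CPM in young sham valves. Young injured 3 and young sham 3 were its highest libraries. For Pxdn the log2 fold change by age was -0.28 ± 0.12 (adjusted p = 0.395) in injured valves, with no overlap, and -0.03 ± 0.11 (adjusted p = 0.964) in sham valves, where the groups overlapped.

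Markers of several cell types moved with age beside these genes. The smooth muscle and pericyte markers, all 11 detected throughout, summed to 18634 to 20480 CPM in aging injured against 6807 to 15316 CPM in young injured valves. In sham valves they summed to 21062 to 24947 CPM in aging mice against 8361 to 19063 CPM in young mice. Within each surgery, 8 of the 11 markers had positive log2 fold changes for age, so not all of them rose. Like Npnt, Col18a1 and Col4a4, the sum was lowest in young injured 3 and young sham 3. With a smooth muscle score as a covariate, added after the data were seen, the log2 fold change for age in injured valves was 0.69 ± 0.21 for Npnt, 0.80 ± 0.22 for Col18a1, 0.58 ± 0.15 for Tinagl1, 0.34 ± 0.17 for Col4a4 and 0.67 ± 0.15 for Ntn4. In sham valves it was 0.64 ± 0.18 for Npnt, 0.52 ± 0.18 for Col18a1, 0.36 ± 0.13 for Tinagl1, 0.36 ± 0.14 for Col4a4 and 0.40 ± 0.14 for Ntn4. Values of Npnt, Col18a1, Tinagl1 and Col4a4 were smaller with that covariate than without it, and those of Ntn4 were not.

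Cardiomyocyte markers summed to 12326 to 14517 CPM in aging injured valves against 9027 to 38512 CPM in young injured valves, which overlapped, and to 7839 to 22125 CPM in aging sham valves against 20986 to 37286 CPM in young sham valves, where aging sham 1 alone reached the young range. With a cardiomyocyte score as a covariate, the log2 fold change for age in sham valves was 0.54 ± 0.24 for Npnt, 0.44 ± 0.25 for Col18a1, 0.30 ± 0.14 for Tinagl1, 0.34 ± 0.20 for Col4a4 and 0.29 ± 0.16 for Ntn4. In injured valves the same fit gave 1.17 ± 0.23 for Npnt (adjusted p = 0.0963), 1.27 ± 0.23 for Col18a1 (adjusted p = 0.0879) and 1.19 ± 0.22 for Lamc3 (adjusted p = 0.0887), which pass the rule. For the genes that were lower in aging valves, that covariate gave -0.15 ± 0.26 for Lamb1, -0.26 ± 0.17 for Nid1 and -0.20 ± 0.13 for Nid2 in sham valves, and -0.69 ± 0.23, -0.38 ± 0.15 and -0.27 ± 0.12 in injured valves. The smooth muscle covariate gave -0.18 ± 0.14 for Lamb1, -0.25 ± 0.12 for Nid1 and -0.30 ± 0.14 for Nid2 in sham valves, and -0.18 ± 0.16, -0.15 ± 0.13 and -0.18 ± 0.16 in injured valves. Mesothelial and epicardial markers, all 8 detected in every library, summed to 81.3 to 90.8 CPM in aging injured valves against 39.9 to 142 CPM in young injured valves, and to 134 to 245 CPM in aging sham valves against 22.4 to 76.4 CPM in young sham valves, where the groups did not overlap. The part of mesothelial cells in these values was not tested.

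A term for the 3 libraries with few detected genes moved most of these log2 age values in injured valves by more than 1.5 times. The term covers both aging injured libraries, so its size came only from young sham 1 against the other young sham libraries. It cannot separate few detected genes from age in injured valves. With that term the log2 fold change was 0.56 ± 0.47 for Col18a1, 0.42 ± 0.47 for Npnt, 0.46 ± 0.26 for Tinagl1, 0.24 ± 0.35 for Col4a4 and 0.20 ± 0.59 for Lamc3, and it was 0.83 ± 0.23 for Ntn4. It was -0.17 ± 0.50 for Lamb1, -0.12 ± 0.28 for Nid1 and -0.23 ± 0.26 for Nid2.

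**Figure D4:**
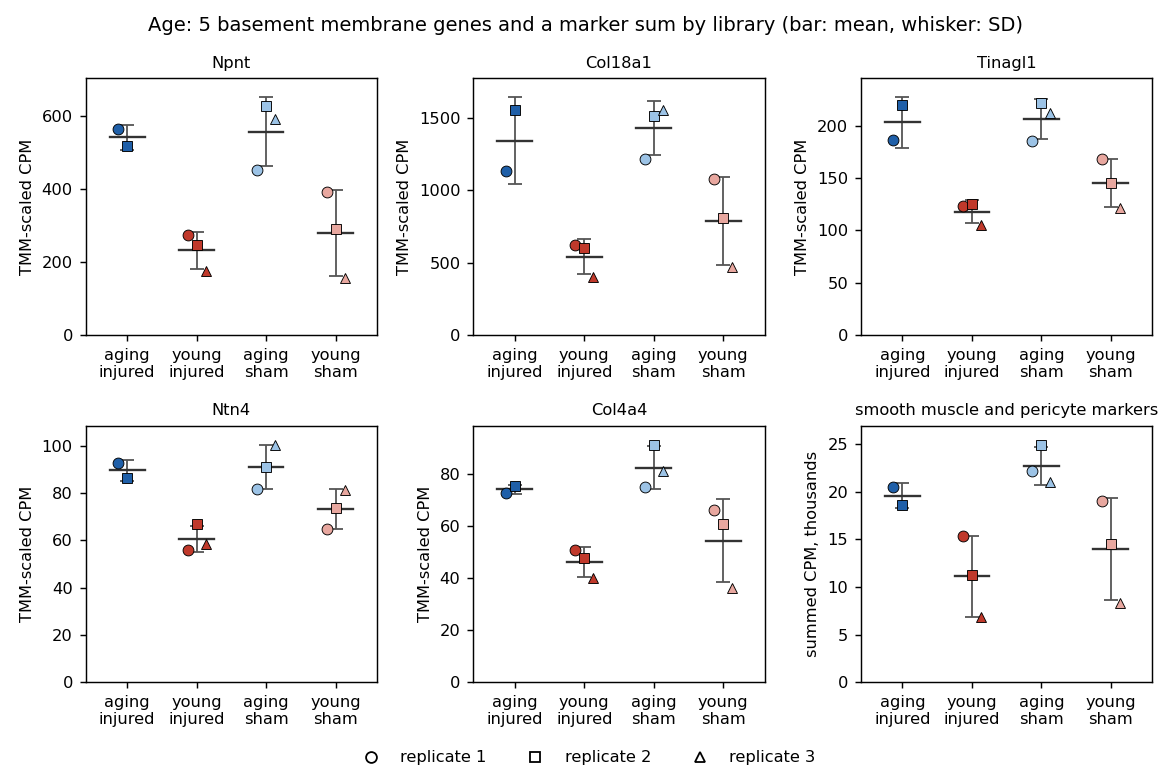
TMM-scaled CPM of Npnt, Col18a1, Tinagl1, Ntn4 and Col4a4, and the summed CPM of 11 smooth muscle and pericyte markers, in each library, with the group mean (bar) and SD (whisker), axes from 0. Within each surgery the aging libraries lie above the young ones in all 6 panels, and young injured 3 and young sham 3 are low in Npnt, Col18a1, Col4a4 and the marker sum.

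The pattern over libraries shows how the members vary among themselves. Within young groups, libraries numbered 3 deviated in several genes at once. On the log2 scale, relative to each gene's mean over the 11 libraries, Col18a1 was at -1.17 in young injured 3 and -0.93 in young sham 3, Smoc1 at -1.04 and -0.87, and Lamc3 at -1.49 and -0.90. Lamb1 was at 1.00 and 0.76 in the same libraries. Among the 26 members with a mean over 10 CPM, Lama4 varied least, with 1.31-fold between its highest and lowest library, and Col4a5 followed with 1.41-fold, against 4.73-fold for Lamc3 and 4.02-fold for Npnt.

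**Figure D5:**
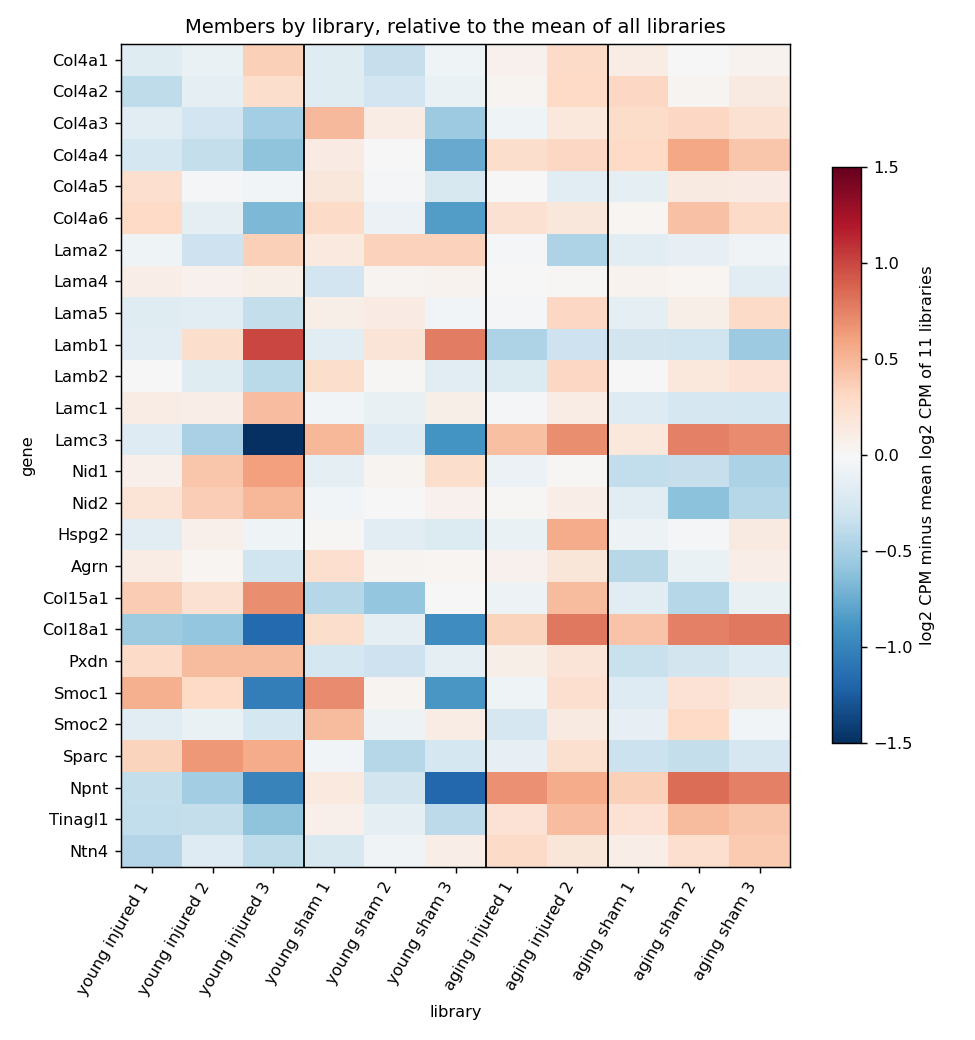
Log2 CPM of the 26 members with a mean over 10 CPM, minus each gene's mean over the 11 libraries, by gene (rows, grouped by role) and library (columns, black lines between groups). Pxdn and Sparc are red in all young injured libraries, Col18a1 and Npnt are red in all aging libraries, and young injured 3 and young sham 3 are blue for Col18a1, Npnt, Smoc1 and Lamc3.

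Other genes of the pathway were counted by list. After injury in young valves, 9.19 percent of all genes had an unadjusted p under 0.05 and 51.5 percent had a positive value. Of 22 tested receptors of basement membranes (integrins, syndecans and others), edgeR called 0 after injury in young valves (4 with an unadjusted p under 0.05, 0 by DESeq2), and the list's median was 0.04 on the log2 scale. Sdc1, a syndecan, had the smallest p of the list, at 0.66 ± 0.17 (adjusted p = 0.178). Of 22 enzymes that fold, modify or crosslink collagen, all 22 had positive values in young valves with a median of 0.41 beside 0.01 over all genes. None of them passed the rule in edgeR (2 in DESeq2, 15 with an unadjusted p under 0.05), and P3h1, a prolyl hydroxylase of collagen, was at 0.68 ± 0.14 (adjusted p = 0.0892). In aging valves 19 of these 22 were positive, beside 48.6 percent of all genes, with a median of 0.22 beside -0.01.

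Of 17 proteases that cut basement membrane, 1 passed the rule in edgeR after injury in young valves, beside 0.418 percent of all genes. It was Mmp14, a membrane-bound collagenase, at 1.11 ± 0.22 on the log2 scale (adjusted p = 0.0721). Of the 17, 13 had positive values, 5 had an unadjusted p under 0.05 in edgeR, and DESeq2 called 1. The median of the list was 0.36. Of 24 tested linker and associated proteins, 0 passed the rule in edgeR and in DESeq2 (8 with an unadjusted p under 0.05), and Sparcl1, a relative of Sparc, was at -0.80 ± 0.13 (adjusted p = 0.0385), under 2-fold. Of 14 interstitial collagens, which lie outside the basement membrane, 3 passed the rule in edgeR in young valves, beside 0.418 percent of all genes. They were Col3a1 at 1.48 ± 0.17 (adjusted p = 0.00656), Col5a2 at 1.09 ± 0.16 (adjusted p = 0.0253) and Col6a3 at 1.02 ± 0.15 (adjusted p = 0.0264). All 14 had positive values in young valves, 11 had an unadjusted p under 0.05 in edgeR, and DESeq2 called 4. The list's median was 0.81 in young and 0.45 in aging valves, beside 0.06 and -0.10 for the 6 collagen IV chains. In the other comparisons edgeR called no gene of these 5 lists.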

How the data were processed

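RNA was sequenced from 1 aortic valve per library, and groups follow the submitters' labels. TopHat2 2.1.0 and mm10 are named in the submitters' processing notes. How reads were counted, and whether by strand, is not given in the sources used here. The authors deposited raw read counts per gene (46983 genes) and, in a second table of 13526 genes, RPKM. The deposited RPKM equal counts per gene length and library size without mitochondrial genes, within a median deviation of 0.132 percent for every library. A single library column of each table (1 of each) matches no label and was not used.

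Counts were fitted in edgeR 4.0.16 (R 4.3.3) over all 11 libraries as 4 group means, with TMM scaling, filterByExpr (minimum count 10, 19366 genes kept) and the quasi-likelihood F test, and p-values were adjusted over all genes by Benjamini-Hochberg. A gene was called at an adjusted p under 0.1 and a fold over 2, the thresholds of the study's design. Each standard error is the size of the log2 value over the root of its F statistic. The scripts were tested on simulated data. Alternatives were DESeq2 1.42.0, its size factors, no filter beyond 1 count, no fold threshold, only the groups compared, a replicate block, marker scores as covariates, a term for the 3 libraries with few detected genes, and leaving out each library. The fit without both young libraries numbered 3 and the smooth muscle covariate were chosen after seeing the data. Values in every library are given for members called, for the 3 with the smallest p in each comparison and for the highest of each role group, and other members were named after their values were seen. Each pathway list is given by its called genes or the 1 with the smallest p. Members, gene lists and tests were chosen with earlier results of these data known. Nothing in the labels says how mice were paired across groups. Chi-square per degree of freedom between libraries of a group was 22.7 to 252 over 10 pairs, so none is a copy of another. Total counts were 27124000 to 36353474 per library. With 1 mouse per library, p-values reflect the spread between these mice. Promoter sequences are from RefSeq (GRCm38.p6), which matched 22 of 32 members.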

Additional observations from a re-analysis of the deposited data

How the results depend on the processing

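Gene counts called are given first, then members where any were called. For injury in young valves (81 genes, 0 members) DESeq2 called 268, no fold threshold 133 with 1 member (Pxdn), only the groups compared 11, the cardiomyocyte covariate 1 member (Lamc3), a term for the 3 libraries with few detected genes 43, and the smooth muscle covariate 340 with 1 member (Lama3). Leaving out each library gave 16 to 447 genes and 0 to 1 members. For injury in aging valves (0 genes) no filter called 1, DESeq2 329, the term 3, and leaving out each library 0 to 261 genes and 0 to 1 members. Averaged over age (115 genes) DESeq2 called 402, no fold threshold 202 with 2 members, the cardiomyocyte covariate 76, the term 288, both young libraries numbered 3 left out 68 with 1 member, the smooth muscle covariate 1 member, and leaving out each library 38 to 284 genes and 0 to 1 members. The interaction (0 genes) had 174 by DESeq2. Age in sham valves (5 genes) had 14 without the filter, 200 by DESeq2, 13 with only the groups compared, 2 with the cardiomyocyte covariate, 1 with the term, 12 without both young libraries numbered 3, 22 with the smooth muscle covariate and 1 to 10 on leaving out each library. Age in injured valves (12 genes) had 38 without the filter, 599 by DESeq2 with 3 members, 0 with only the groups compared, 42 with the cardiomyocyte covariate and 3 members, 104 with the term, 89 with the smooth muscle covariate, and 3 to 429 genes and 0 to 2 members on leaving out each library. The causes were not tested.

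With the replicate number as a block, 55 genes were called for injury in young valves, 60 averaged over age and 4 for age in injured valves. Deviations of same-numbered libraries correlated between -0.13 and 0.25 over 15 pairs. Those of differently numbered libraries correlated between -0.23 and 0.26 over 30 pairs. With 2 or 3 mice in a group, these ranges cannot tell whether the numbers pair the mice. The fit without both young libraries numbered 3 and the smooth muscle covariate were chosen after seeing the data. Over 33 results for single members and 683 settings of them, 13 passed the threshold that the reported value missed. Some of these passed only because the fold threshold was dropped. No reported value had passed the threshold, so none could lose it. The sign changed in 1, the interaction of Frem1, which ran between -0.0251 without aging injured 2 and 1.94 without aging injured 1. Lama1, with 0 to 8 counts per library, could not be tested at this depth. In aging injured 1 and 2, Frem2 had 212 and 4 counts and Fras1 18 and 154 counts, a wide spread between those mice.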
